A study of Danio rerio with 4 samples.

Results

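The genes described here encode the proteins of the cytosolic ribosome. They were chosen by name: every row of the deposited count table whose name began with rpl or rps (with or without a further p) followed by a digit, other than the rps6k kinases, and whose counts summed to at least 20 over the libraries. The rule used no difference between groups. It found 84 rows among 23236 in the table, 48 of them with large-subunit names and 36 with small-subunit names. No row with such a name fell below the minimum. The row nearest to it was rpl26, read 4 and 5 times in mutants and 4 and 7 times in siblings, a total of exactly 20, and it was the only one too low to be tested, which left 83.

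The RNA was that of entire untreated zebrafish (Danio rerio) of the strain AB, taken 7 days after fertilisation. Parents heterozygous for a mutation in tubgcp6 had been crossed to each other, and their offspring were sorted by genotype into tubgcp6 mutants and siblings, with 2 libraries from each. The protein Tubgcp6 belongs to the gamma-tubulin ring complex, from which microtubules grow. The titles call the libraries of each group biological replicates. The lesion, the genotypes pooled as siblings, the number of embryos per library and whether the groups shared clutches are not stated in the labels. The p-values therefore reflect only how far these libraries vary, and what set the replicates apart is not stated.

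A cytosolic ribosome is built from a small subunit, which decodes the mRNA, and a large subunit, which joins amino acids and carries the tunnel through which the new chain leaves. Each subunit holds ribosomal RNA and 1 copy of most of its proteins, so the cell makes these proteins in near-equal numbers, and their mRNAs are among the most abundant of a growing cell. Loss of 1 copy of several of these genes causes Diamond-Blackfan anemia in humans, a failure of red blood cell formation. In mammals, free ribosomal proteins of the 5S ribonucleoprotein particle bind Mdm2.

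Reads assigned to genes totalled between 14246582 and 20652276 per library. The mutant libraries differed from each other more than the sibling libraries did, by 5.64 against 2.73 in chi-square over genes divided by its degrees of freedom. The mutated gene was at 30.1 and 29.2 CPM (counts scaled to a common library size after TMM normalisation) in mutants and at 35.3 and 38.9 CPM in siblings. Genes that mark muscle, neurons, rods, lens, liver, pancreas, red cells, skin, intestine and heart were all detected in each library. Of these 10 markers, 2 rose and 6 fell, with a median of -0.781 and a range from -3.33 to 0.70. Over all rows tested, 22.9% rose and 21.0% fell.

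The summed ribosomal protein genes took a smaller share of the reads in mutants. Of all counts, they held 7.50% and 6.97% in mutants against 8.30% and 8.11% in siblings, or 7.23% ± 0.376 against 8.20% ± 0.131 (SD, n = 2 each). Both mutant libraries lay below both sibling libraries, and the mutant libraries lay further from each other than the sibling libraries did. The ratio of the mean shares was 0.882, and with 1 library left out in turn it lay between 0.849 and 0.914. In bulk RNA of whole embryos, fewer cells rich in these mRNAs and less of these mRNAs per cell cannot be told apart.

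**Figure D1:**
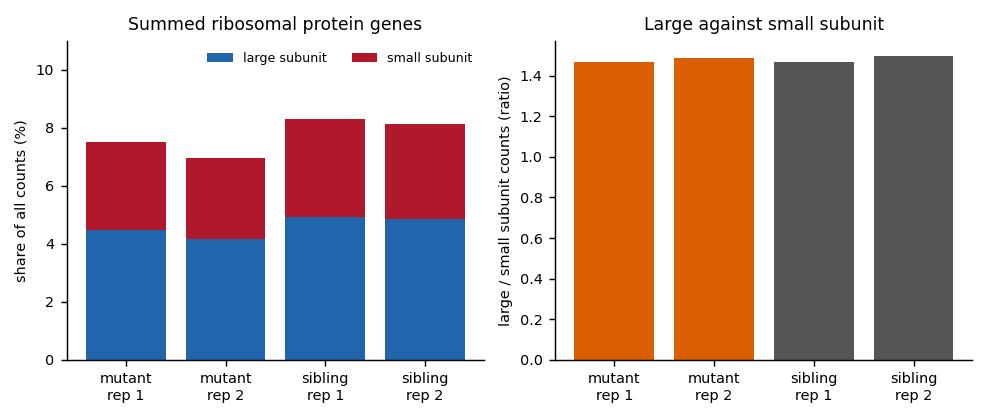
The left bars give the summed counts of the large-subunit (blue) and small-subunit (red) genes as a percentage of all counts in each library; the right bars give the ratio of large-subunit to small-subunit counts. The total is 7.50% and 6.97% in mutants against 8.30% and 8.11% in siblings, while the ratio stays between 1.47 and 1.50.

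Most genes of the set had small differences of similar size, with rps27l the clearest exception. The median log2 fold change (mutant over sibling throughout) of the 83 tested rows was -0.194, that is 87.4% of the sibling level, beside a median of 0.007 over all 20097 rows tested. The interquartile range of the set was 0.085 log2 units, against 0.643 for all rows tested and 0.636 for the 584 other rows with a mean of at least 200 CPM, whose median was -0.10. In all, 75 of the 83 values were below 0.

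In edgeR's quasi-likelihood test at an adjusted p of 0.05, 31 of the 83 rows fell, 3 rose and 49 missed the threshold. That is 37.3% called lower, where 21.0% of all rows tested were called lower, and 3.61% called higher, where 22.9% of all rows were. Among the 584 other rows with a mean of at least 200 CPM, 38.7% were called lower and 28.9% higher. At that level, 41.3% of the 75 rows of the set were called lower and 0 higher. That cut was not planned, and the 3 rows of the set that rose lay below it. Both mutant libraries lay below both sibling libraries for 59 of the 83, against 35.1% of all rows. They lay above them for 3, against 36.6% of all rows. At a mean of at least 200 CPM, both mutant libraries were lower for 59 of 75 rows of the set and 297 of 584 others. The count of falls depended on which libraries were used. It was 1, the gene rpl5b, without sibling replicate 1 and also without sibling replicate 2, although 73 and 75 of the 83 values were then below 0. Without mutant replicate 1 it was 70, and without mutant replicate 2 it was 28. DESeq2 called 36 falls and 1 rise.

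The spread between replicates has the same order as the group difference. Between the mutant libraries, replicate 1 exceeded replicate 2 by a median of 0.156 log2 units over the 83 rows, and between the sibling libraries replicate 1 exceeded replicate 2 by 0.051. The same medians over all rows tested were 0.003 and -0.001. Over the 584 other rows with a mean of at least 200 CPM they were 0.078 and 0.014. Without mutant replicate 1 the median fold change of the set was -0.278, and without mutant replicate 2 it was -0.117.

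Genes of the large and the small subunit had similar medians. Of 47 tested large-subunit rows, 20 fell and 2 rose, with a median of -0.201. Of 36 small-subunit rows, 11 fell and 1 rose, with a median of -0.192. The share called lower was 42.6% in the large and 30.6% in the small subunit, against 21.0% of all rows. The share called higher was 4.26% and 2.78%, against 22.9% of all rows. The large-to-small ratio of summed counts, which no library scaling affects, was 1.47 and 1.49 in mutants and 1.47 and 1.50 in siblings. The mutant ratios lay within the range of the sibling ratios, and the difference of the means was -0.00314. No test was run between subunits, since genes of a subunit are not replicates of it.

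Among the large-subunit genes, the pair rpl5a and rpl5b stood apart from each other. Both encode Rpl5, which with Rpl11 and 5S RNA forms the particle that docks on the large subunit. The gene rpl5b was read at 1070 and 985 CPM in mutants and at 1333 and 1319 CPM in siblings, with no overlap. It fell by 0.37 ± 0.08 (log2 fold change ± SE; edgeR adjusted p = 0.000759), the lowest value of the set, and its call held under all 12 other settings tried, with adjusted p between 2.89e-10 and 0.0486. Its partner rpl5a was at 941 and 852 CPM in mutants against 944 and 930 CPM in siblings, a log2 fold change of -0.06 ± 0.08 (edgeR adjusted p = 0.569), with mutant replicate 1 inside the sibling range.

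The make-up of the rpl5 pair differed between groups within each library's own reads. The ratio of rpl5a to rpl5b counts was 0.879 and 0.865 in mutants and 0.708 and 0.705 in siblings, a gap far wider than that between replicates. An exact two-sided permutation test gave p = 0.333, the smallest that 2 against 2 libraries allow. The summed level of the pair was 1924 ± 123 CPM in mutants against 2263 ± 19.6 CPM in siblings (SD, n = 2 each). How reads that match both copies were counted is not stated, so the split between the copies carries that uncertainty. The third gene of the particle, rpl11, was at 1042 and 916 CPM in mutants against 1011 and 999 CPM in siblings, a log2 fold change of -0.04 ± 0.09 (edgeR adjusted p = 0.753), and the groups overlapped.

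**Figure D2:**
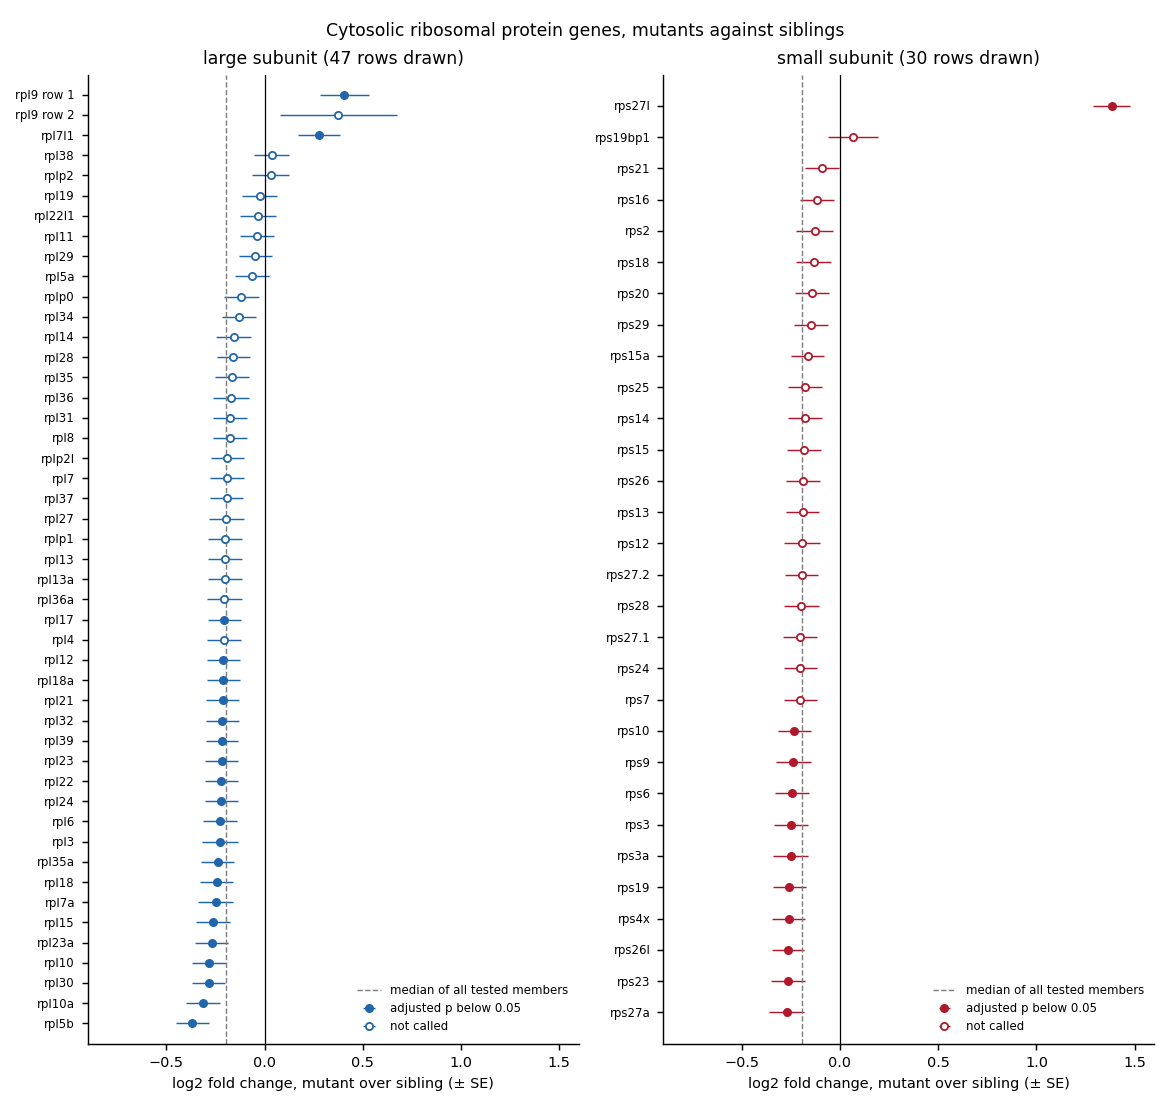
Each point is a tested gene of the large (blue) or small (red) subunit, placed at its log2 fold change between mutants and siblings with its standard error; filled points passed an adjusted p of 0.05 and the dashed line is the median of all 83 tested rows, -0.194, of which a few are not drawn. Most genes sit in a narrow band left of 0, with rps27l at 1.38 far to the right and rpl5b lowest at -0.37.

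Of the genes of the catalytic region and the exit tunnel of the large subunit, about as many fell as did not pass. In the whole set 37.3% fell, and 21.0% of all rows were called lower. Both groups are small and were assigned after values were seen, and their shares were not tested against the others. Of 4 genes whose proteins reach the peptidyl transferase region, 2 fell: rpl10, whose protein joins the subunit late in its maturation (-0.28 ± 0.09, edgeR adjusted p = 0.009), and rpl3 (-0.23 ± 0.09, edgeR adjusted p = 0.0433). The others were rpl4 at -0.21 ± 0.09 and rpl8 at -0.18 ± 0.09. Of 6 genes whose proteins line or ring the exit tunnel, rpl23a (-0.27 ± 0.09), rpl39 (-0.22 ± 0.08) and rpl17 (-0.21 ± 0.08) fell, while rpl31 was at -0.18, rpl35 at -0.17 and rpl19 at -0.03. The gene rpl19 was read at 1291 and 1127 CPM in mutants and at 1243 and 1219 CPM in siblings, so its groups overlapped.

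Genes of the stalk, the flexible arm that recruits elongation factors, were mixed. The stalk-base gene rpl12 fell by 0.21 ± 0.08 (edgeR adjusted p = 0.0445). The scaffold gene rplp0 was at 2826 and 2691 CPM in mutants against 2965 and 3026 CPM in siblings, a log2 fold change of -0.12 ± 0.09 (edgeR adjusted p = 0.292). The tip genes rplp1 and rplp2l were at -0.20 ± 0.09 and -0.19 ± 0.08. The remaining tip gene, rplp2, was at 554 and 433 CPM in mutants against 488 and 479 CPM in siblings. Its sibling values lay between its mutant values, and its log2 fold change was 0.03 ± 0.09; without mutant replicate 1 it was -0.166 and called lower (edgeR adjusted p = 0.0337), and without mutant replicate 2 it was 0.196 and called higher (edgeR adjusted p = 0.00864).

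Other large-subunit genes that fell most were rpl10a, at 1196 and 1061 CPM in mutants against 1405 and 1403 CPM in siblings (-0.32 ± 0.09, edgeR adjusted p = 0.00392), and rpl30, at 719 and 640 CPM against 840 and 816 CPM (-0.28 ± 0.08, edgeR adjusted p = 0.00711). Neither overlapped between groups. The gene rpl38, which in mice is needed for translation of Hox mRNAs, was at 252 and 224 CPM in mutants against 250 and 214 CPM in siblings (0.04 ± 0.09, edgeR adjusted p = 0.778), with overlapping groups.

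In the small subunit, genes of the decoding centre and of the mRNA entry channel had a median of -0.237, near the -0.194 of the set. Of 5, the genes rps23 (-0.26 ± 0.09, edgeR adjusted p = 0.0143), rps3 (-0.25 ± 0.09) and rps9 (-0.24 ± 0.09) fell, and rps15 (-0.18 ± 0.09) and rps2 (-0.13 ± 0.09) did not pass. That is 60.0% called lower, against 37.3% of the set and 21.0% of all rows. The group was assigned after values were seen, and its share was not tested against the others. For rps3 the levels were 1519 and 1362 CPM in mutants and 1739 and 1683 CPM in siblings. Of 5 genes at the mRNA exit channel 2 fell (40.0%), rps26l (-0.26 ± 0.08) among them. The genes rps28 (-0.20 ± 0.09), rps26 (-0.19 ± 0.08) and rps14 (-0.18 ± 0.09) did not pass. The gene rps14, whose loss of 1 copy drives the anemia of the human 5q deletion syndrome, stood at 1042 and 935 CPM in mutants and 1114 and 1121 CPM in siblings, without overlap.

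The gene rps6, whose protein is the classical substrate of S6 kinase, was at 1501 and 1365 CPM in mutants against 1705 and 1685 CPM in siblings, and it fell by 0.24 ± 0.09 (edgeR adjusted p = 0.0239). The gene rps27a, which encodes a ribosomal protein fused to ubiquitin, was at 1212 and 1087 CPM against 1425 and 1351 CPM, and it fell by 0.27 ± 0.09 (edgeR adjusted p = 0.0119). Groups overlapped for neither gene. The call of each was lost without sibling replicate 1 and without sibling replicate 2, as were those of all other falls except that of rpl5b.

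Genes linked to Diamond-Blackfan anemia in humans had a median close to that of the set. Of 10 such genes, 4 fell (40.0%, against 37.3% of the set and 21.0% of all rows) and 6 missed the threshold (median -0.202). The gene rps19, the one first tied to that anemia, was at 880 and 854 CPM in mutants against 1088 and 985 CPM in siblings (-0.26 ± 0.08, edgeR adjusted p = 0.0144). The gene rpl35a was at 633 and 587 CPM against 739 and 701 CPM (-0.24 ± 0.08, edgeR adjusted p = 0.0207), and rps10 also fell (-0.23 ± 0.08). Of 8 genes whose proteins bind Mdm2 in mammals, 3 fell, 1 rose (rps27l) and 4 missed the threshold (median -0.19). The share that fell was 37.5%, against 37.3% of the set.

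**Figure D3:**
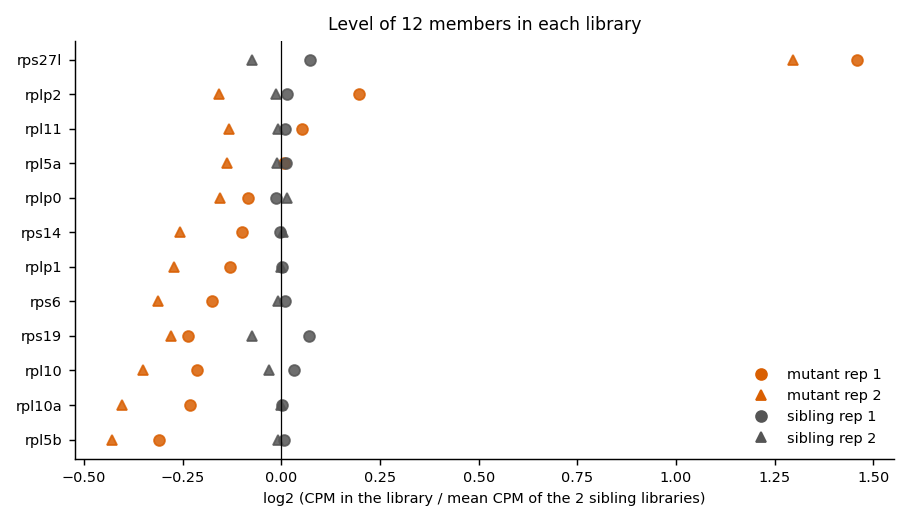
Each row is a gene and each symbol a library, placed at the log2 ratio of its CPM to the mean CPM of the sibling libraries; orange marks mutants, grey siblings, circles replicate 1 and triangles replicate 2. For most genes mutant replicate 2 lies furthest left and mutant replicate 1 between it and the siblings, while for rps27l both mutant libraries lie far to the right.

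A single gene of the set rose strongly. The gene rps27l encodes a close relative of the small-subunit protein Rps27. Its counts were 2267 and 2174 in mutants and 723 and 954 in siblings, or 134 and 120 CPM against 51.2 and 46.3 CPM. Groups were far apart, and the log2 fold change was 1.38 ± 0.09, a level 2.61 times that of siblings (edgeR adjusted p = 3.09e-13). The call held under all 12 other settings tried, with log2 fold changes from 1.29 to 1.58.

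The canonical family members rps27.1 and rps27.2 lay near the median of the set. The gene rps27.1 was at 776 and 682 CPM in mutants against 862 and 814 CPM in siblings (-0.20 ± 0.09, edgeR adjusted p = 0.0581), and rps27.2 was at 538 and 486 CPM against 606 and 566 CPM (-0.19 ± 0.08, edgeR adjusted p = 0.0611). As a share of the family's reads, rps27l made up 9.25% and 9.29% in mutants and 3.37% and 3.24% in siblings. The 3 genes together were at 1368 ± 114 CPM in mutants against 1473 ± 65.3 CPM in siblings (SD, n = 2 each), and the groups overlapped.

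The gene rps27l lies on chromosome 25, as tubgcp6 does, with 560 protein-coding genes between them in RefSeq's GRCz12tu assembly, and it is the only gene of the set on that chromosome. Of 558 tested rows on the chromosome, 104 were higher (18.6%, against 22.9% of all rows) and 123 lower (22.0%, against 21.0%), with a median of 0.013. The part of linkage to the mutated locus in the value of rps27l was not tested.

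**Figure D4:**
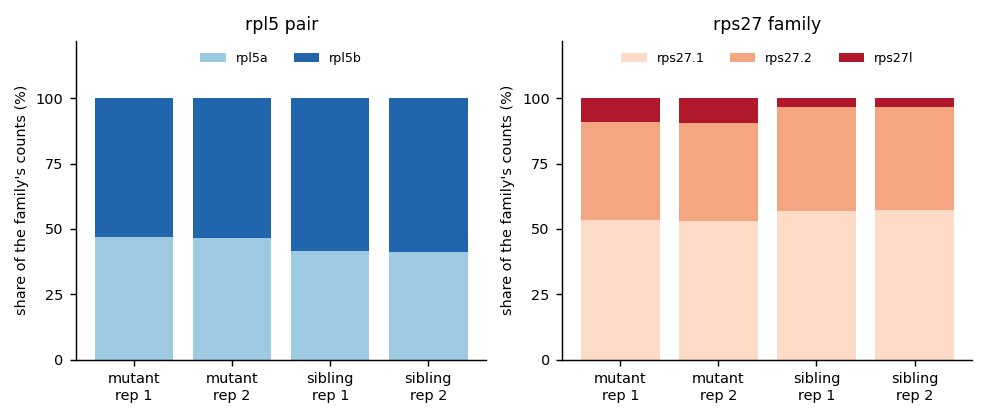
Bars give, for each library, the percentage of a family's reads that each copy took, on the left for the rpl5 pair and on the right for the rps27 family. The share of rpl5a is 46.8% and 46.4% in mutants against 41.4% and 41.3% in siblings, and that of rps27l 9.25% and 9.29% against 3.37% and 3.24%.

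Other families with more than 1 copy are given by the same shares. The share of rpl7l1 in the reads of rpl7 and rpl7l1 was 2.19% and 2.34% in mutants and 1.79% and 1.52% in siblings, without overlap. The share of rplp2 in the reads of rplp2 and rplp2l was 51.0% and 47.1% in mutants and 45.0% and 45.8% in siblings, without overlap but with the mutant libraries far apart. The share of rpl22l1, a relative of rpl22, was 22.9% and 21.1% against 19.3% and 20.5%. There rpl22 fell by 0.22 ± 0.08 (edgeR adjusted p = 0.0336), while rpl22l1 was at -0.03 ± 0.09. The call of rpl22 was lost without mutant replicate 2 (edgeR adjusted p = 0.0515) and with either sibling library left out. The share of rps26l in the reads of rps26 and rps26l was 68.6% and 70.7% in mutants and 71.1% and 70.3% in siblings, so the groups overlapped.

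The rows with low levels were centred elsewhere than the abundant ones, a difference that was not tested. Of the 83 rows, 75 had a mean of at least 200 CPM. Of these, 31 fell and 0 rose, with a median of -0.201. At an unadjusted p under 0.05, 0 of these 75 were higher. The other 8 rows, each at a mean of 107 CPM or less, had a median of 0.219, and 3 of them rose and 0 fell. Besides rps27l these were rpl7l1 and 1 of 2 rows named rpl9. The 8 rows were both rows named rpl9, rpl7l1, rps19bp1 and minor copies or relatives of abundant genes, such as rps27l and rpl22l1. Level and kind of row therefore cannot be told apart in this split. Among the 75 abundant rows 41.3% were called lower, against 38.7% of the 584 other rows at that level and 21.0% of all rows. Among the 8 rows 37.5% were called higher, against 22.9% of all rows. DESeq2 called only rps27l higher.

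The gene rpl7l1 is related to rpl7 but is not part of the standard set of ribosomal proteins. It was at 34.3 CPM in both mutant libraries and at 30.7 and 26.3 CPM in siblings (0.28 ± 0.11, edgeR adjusted p = 0.0388), a call that was lost in DESeq2, with upper-quartile factors (edgeR adjusted p = 0.0635) and without sibling replicate 1 or sibling replicate 2. The relative rpl7 was at -0.19 ± 0.09. The first rpl9 row was at 23.1 and 22.0 CPM in mutants against 15.3 and 18.4 CPM in siblings (0.41 ± 0.13, edgeR adjusted p = 0.00925), and was not called in DESeq2 or without sibling replicate 1. The second was at 3.66 and 2.26 CPM against 1.84 and 2.57 CPM, with overlapping groups. With 1 name on 2 rows, how reads of rpl9 were divided is not known. Both rows lay far below the abundant rows of the set, whose smallest mean was 235 CPM. Whether they hold most reads of rpl9 was not examined, so the call of the first row may not stand for the rpl9 mRNA. The gene rps19bp1, which fits the name pattern but encodes a nucleolar partner of Rps19, was at 0.07 ± 0.13. Without rps19bp1 and rpl7l1 the median of the set was -0.196, with 31 falls and 2 rises.

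A scaling chosen after the data were seen, in which each library was divided by the summed counts of the set itself, asked which genes departed from the rest of the ribosome. It moved the median of all rows tested by 0.196, gave 6173 rows called higher and 1601 lower over the table (4595 and 4225 under TMM), and set that of the ribosomal protein genes to 0.001. Of the set, rpl5b alone was then called lower, at -0.173 (edgeR adjusted p = 0.0292). The 5 rows called higher were rps27l at 1.58, rpl9 (first row), rpl7l1, rplp2 at 0.22 and rpl19. The genes rpl38 (0.231, edgeR adjusted p = 0.0539) and rpl11 (0.156, edgeR adjusted p = 0.053) did not pass.

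Ribosomal proteins whose names lie outside the pattern had a median close to that of the set. Of 5 such genes, 2 fell, 0 rose and 3 missed the threshold (median -0.203). The share that fell was 40.0%, against 37.3% of the set and 21.0% of all rows. The gene faua, which encodes the small-subunit protein Rps30 fused to a ubiquitin-like protein, was at 640 and 590 CPM in mutants against 755 and 733 CPM in siblings, and fell by 0.28 ± 0.08 (edgeR adjusted p = 0.00777). The scaffold gene rack1 fell by 0.27 ± 0.09 (edgeR adjusted p = 0.0129). Of those that missed it, rpsa was at -0.20 ± 0.09 and the minor copy faub at 0.19 ± 0.15. Without sibling replicate 1 or without sibling replicate 2, 0 of the 5 were called, and without mutant replicate 1, 4 were lower.

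The mitochondrial ribosome, a separate machine whose proteins are also made from nuclear genes, had a median slightly above 0. Of its 75 genes, 6 rose, 4 fell and 65 missed the threshold (median 0.077), and 25 values were below 0. Among all rows tested, 22.9% were called higher and 21.0% lower, so these genes were called less often in both directions. DESeq2 called 3 of them higher and 1 lower. The summed level of the list was 1436 and 1326 CPM in mutants against 1366 and 1352 CPM in siblings, with overlapping groups. Its large-subunit genes had a median of 0.032 and its small-subunit genes 0.092. The gene mrps34 was at 22.3 and 18.9 CPM in mutants against 13.5 and 14.2 CPM in siblings (0.57 ± 0.13, edgeR adjusted p = 0.000746), and mrpl2 was at 56.0 and 57.3 CPM against 77.3 and 75.9 CPM (-0.43 ± 0.09, edgeR adjusted p = 0.000234). Between the mutant libraries these genes had an offset of the same sign as the cytosolic ones, with replicate 1 above replicate 2 by a median of 0.129. The number that fell was 7 without mutant replicate 1 and 1 with either sibling library left out, and the number that rose was 10 without mutant replicate 2 and 2 without sibling replicate 2.

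Genes that assemble ribosomes in the nucleolus had a median near 0 but a lower summed level in mutants. The sum was 3613 and 3340 CPM in mutants against 3962 and 3927 CPM in siblings, a ratio of means of 0.881 beside 0.873 for the summed CPM of the ribosomal protein genes. Of 91, 9 rose, 24 fell and 58 missed the threshold (median -0.03). That is 9.89% called higher, against 22.9% of all rows, and 26.4% called lower, against 21.0%. The gene nop53, which helps bring the 5S particle into the large subunit, was at 169 and 146 CPM in mutants against 268 and 284 CPM in siblings, and fell by 0.81 ± 0.09 (edgeR adjusted p = 6.8e-09). The nucleolar GTPase gene gnl2 fell by 0.63 ± 0.09 and the small-subunit assembly genes nop14 and wdr43 by 0.63 ± 0.10 and 0.49 ± 0.09. The number that rose was 17 without mutant replicate 2, 4 without sibling replicate 1, 1 without sibling replicate 2 and 3 in DESeq2, and the number that fell was 13 without sibling replicate 2.

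Genes of translation factors were called in both directions. Of 44 initiation genes, 8 rose (18.2%, against 22.9% of all rows) and 13 fell (29.5%, against 21.0%), with a median of -0.033. The helicase gene eif4a1a rose by 0.98 ± 0.08 and eif4g2a, of a scaffold used outside the standard cap-binding complex, by 0.90 ± 0.09, while the poly(A)-binding protein gene pabpc4 fell by 0.63 ± 0.08 and eif3g by 0.57 ± 0.08. Of 16 elongation genes, 3 rose and 4 fell, also near the shares of all rows, with a median of -0.077. Among them eif5a2 rose by 0.86 ± 0.08 and eef1a1a fell by 0.38 ± 0.09. The interquartile ranges of these lists were 0.47 and 0.435 log2 units, below the 0.643 of all rows tested and above the 0.085 of the ribosomal protein genes. Without sibling replicate 2, 4 initiation genes rose and 6 fell, and 0 elongation genes fell. Without sibling replicate 1, 5 initiation genes rose and 7 fell, and 1 elongation gene fell. Without mutant replicate 1, 8 elongation genes fell, and without mutant replicate 2, 13 initiation genes rose.

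**Figure D5:**
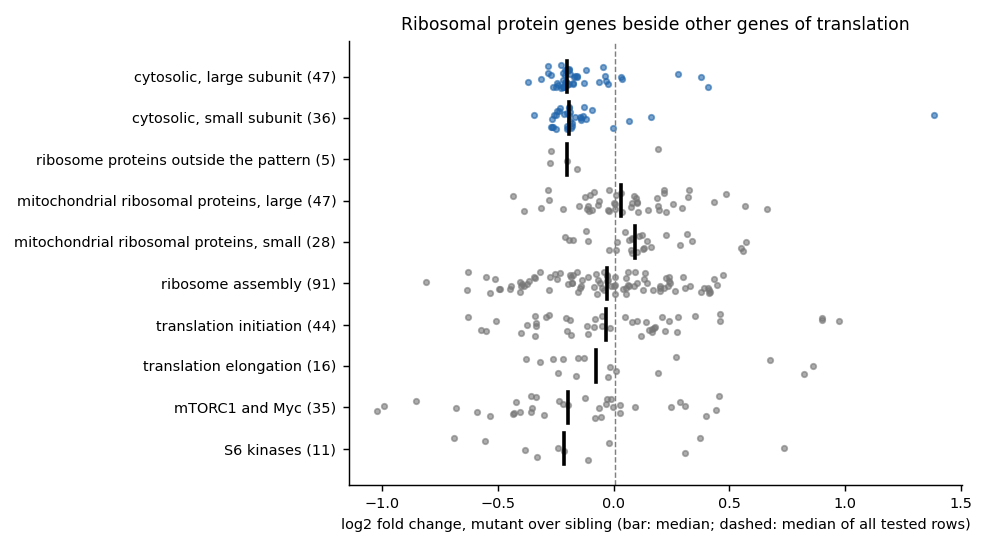
Each point is a tested gene at its log2 fold change between mutants and siblings, grouped by list with the number of genes in brackets; black bars are medians and the dashed line is the median of all rows tested. The cytosolic ribosomal protein genes (blue) form a narrow group with medians of -0.201 and -0.192, whereas the mitochondrial ones are centred at 0.032 and 0.092 and the assembly and translation factor genes are spread more widely.

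Regulators of ribosomal protein synthesis were given from 2 lists. Of 35 genes of the growth-control complex mTORC1 and of the Myc network, 5 rose and 15 fell, with a median of -0.196. That is 14.3% called higher, against 22.9% of all rows, and 42.9% called lower, against 21.0%. The gene sesn1, an inhibitor of mTORC1, was at 204 and 198 CPM in mutants against 400 and 401 CPM in siblings, and fell by 0.99 ± 0.08 (edgeR adjusted p = 2.47e-11). The Myc family gene mych fell by 1.02 ± 0.09, the translational repressor gene eif4ebp3 by 0.85 ± 0.10 and akt1s1, another mTORC1 inhibitor gene, by 0.59 ± 0.09. Genes of the same kinds also rose, among them eif4ebp1 by 0.44 ± 0.09, eif4ebp2 by 0.29 ± 0.08 and sesn3 by 0.31 ± 0.09. In this list 1 gene rose without sibling replicate 1 and without sibling replicate 2, and 3 in DESeq2.

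Of the 11 ribosomal S6 kinase genes, which the name rule left out, 3 rose (27.3%, against 22.9% of all rows) and 2 fell (18.2%, against 21.0%). The genes rps6ka3a (0.74 ± 0.10), rps6kb1a (0.37 ± 0.11) and rps6ka1 (0.31 ± 0.11) rose, and rps6ka5 (-0.69 ± 0.14) and rps6kal (-0.33 ± 0.09) fell. The gene rps6kb1a is 1 of 2 zebrafish copies of the kinase that acts on Rps6, and the other, rps6kb1b, was at -0.11 ± 0.09. Only 1 rose and 1 fell without sibling replicate 2, 4 fell without mutant replicate 1, and 1 rose in DESeq2.

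Transcripts that mark dividing cells and several tissues differed between the groups. All 14 proliferation genes rose (median 1.646), and their summed level was 699 and 751 CPM in mutants against 237 and 236 CPM in siblings. Of 17 exocrine pancreas genes, 16 fell and 0 rose (median -1.61), with a summed level of 6337 and 6049 CPM in mutants against 18506 and 18354 CPM in siblings. Over all rows tested, 22.9% were called higher and 21.0% lower. The exocrine pancreas makes digestive enzymes and is known for very high protein synthesis. Of the 10 tissue markers, the rod gene rho (-3.33) and the lens gene cryaa (-3.04) were lowest and the heart gene myl7 (0.70) was highest, and their summed level was 15752 and 14716 CPM in mutants against 15138 and 14841 CPM in siblings. The part of these differences in the lower share of ribosomal protein reads was not tested.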

How the data were processed

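RNA sequencing of whole embryos was deposited by the authors as 1 table of raw counts per gene, with 4 libraries. Per the submitters' processing notes, the tools were STAR 2.7.10a, fastp 0.23.2 and featureCounts 2.0.1, along with DESeq2 1.26.0 under R 4.2.2, and the build was GRCz11. Which annotation and strand setting were used, and how reads matching several genes were handled, is not given in the sources used here; reads of near-identical copies may be split between them.

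Of 23236 rows, 17 with names made only of digits held 0.0574% to 0.0626% of the counts. After edgeR's filterByExpr, which removed 3139 rows, 20097 were tested in edgeR 4.0.16 (R 4.3.3) with TMM scaling, the quasi-likelihood F-test of mutants against siblings and Benjamini-Hochberg adjustment over all rows. The SE was the log2 fold change over the square root of F. The code was tested on simulated counts. With 2 libraries per group precision is limited, and the median SE was 0.086 for the 83 tested rows of the set. For the 8 of these rows with a mean below 200 CPM it was 0.126. Gene names were matched to RefSeq (GRCz12tu), and all 83 names of the set were found.

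The genes, lists and tests were chosen with earlier results of these data known. Structural role groups and paralogue families were assigned after values were seen. Genes named with values were the 8 largest rises and 8 largest falls of the set at a mean log2 CPM of at least 1, members with a known role, paralogues by name, tubgcp6 and up to 4 genes of smallest p per list; other genes named were chosen after their values were seen. Alternatives were other scalings, filters, DESeq2 1.42.0, a replicate block and leaving out each library. No sequences or transcript lengths were used, so levels were compared between genes only to set low rows apart from abundant ones. A few genes are neither named nor drawn, but they remain in the counts and medians of the set.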

Additional observations from a re-analysis of the deposited data

How the results depend on the processing

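The medians stayed below 0 under the other scalings tried, while division by the set's own total brought them to 0.001 for all, -0.005 for the large and 0.003 for the small subunit. The count of genes called lower, 31 as reported, was 48 with upper-quartile factors, 1 with the set's own total and between 1 and 70 with 1 library left out. The count called higher, 3 as reported, was 1 in DESeq2, 0 among rows of at least 200 CPM, 5 with the set's own total and between 1 and 4 with 1 library left out. With 1 library left out the median lay between -0.278 and -0.117 for all, -0.273 and -0.132 for the large and -0.279 and -0.108 for the small subunit, and the ratio of shares between 0.849 and 0.914. The gene rplp2 was at -0.166 without mutant replicate 1 and 0.196 without mutant replicate 2. In these fits a lone library is assumed to vary like the other group.

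Libraries share only a replicate number: same-numbered deviations correlated at 0.018 over all rows. With that replicate block, 54 were called lower and 3 higher. Over the table, 4595 rows were called higher and 4225 lower, against 2977 and 2429 without sibling replicate 2, and 3207 and 2916 in DESeq2. The causes were not tested. The gene rpl26, with 20 counts in all, was too low to be tested, for a reason that was not examined.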
